A study of Mus musculus with 6 samples.

Results

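The L1 family and the contactins are cell adhesion molecules of the immunoglobulin superfamily that sit on growing axons. They were described here as 10 genes, the 4 genes of the L1 family (L1cam, Nrcam, Nfasc and Chl1) and the 6 contactin genes (Cntn1 to Cntn6), which were chosen by name among the 53421 genes of the count table. All 10 members passed the filter on low counts, which 17214 genes of the table passed. Cntn5 passed through shYthdf2, where it had at least 33 counts in each library, while 2 of the shCtrl libraries had under 10. The RNA-seq was done on cultured cerebellar granule cells (GCs) of C57BL/6 mice, labelled as postnatal day 8, that were infected with a lentivirus carrying a short hairpin RNA. There were 3 libraries with the hairpin against Ythdf2 (shYthdf2, hairpin number 3) and 3 with a control hairpin (shCtrl), and each group held replicates 1, 2 and 4. Both groups were wild type apart from the hairpin and both were selected with puromycin, so the cells of both carried the virus. A single hairpin against Ythdf2 was sequenced, which cannot tell an effect of losing YTHDF2 from one of that hairpin. The study's methods call the 3 replicates of a group biological, without saying what they shared (litter, culture day or virus), so the p-values measure the spread between these libraries.

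Members of the L1 family span the membrane. They bind each other, contactins and other partners through immunoglobulin and fibronectin domains outside the cell, and inside the cell a short motif holds them to ankyrins and through these to spectrin and actin. Contactins have similar outer domains but are tied to the membrane by a lipid anchor, and so act together with membrane-spanning partners such as the contactin-associated proteins. In the cerebellum, contactin 2 (TAG-1, the product of Cntn2) marks young GCs that extend parallel fibers, and contactin 1 (F3, the product of Cntn1) appears on their axons as they mature. YTHDF2 binds mRNAs with N6-methyladenosine and promotes their decay.

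The labels of the libraries disagree. Their descriptions name the hairpin, and the groups used here follow them, whereas the titles and the genotype field give the groups the other way round. If the titles were right, each direction below would be inverted. In the libraries described as shYthdf2, Ythdf2 itself had 501, 402 and 501 normalized counts in replicates 1, 2 and 4, and in shCtrl 618, 841 and 628. The groups did not overlap, with the shYthdf2 mean at 67.3% of the shCtrl mean, and the difference did not pass the test over all genes (log2 fold change -0.57, SE 0.16, edgeR quasi-likelihood test with Benjamini-Hochberg adjustment, adjusted p = 0.125). Within replicate numbers 1, 2 and 4 the log2 difference of Ythdf2 was -0.30, -1.06 and -0.33, so that it was widest in replicate 2. The libraries held 17246821 to 21546595 counts.

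Replicate 2 stood apart in both groups. Over the genes tested, log2 values of replicates 1 and 4 correlated at 0.9943 in shYthdf2 and 0.9949 in shCtrl, while shYthdf2 replicate 2 was closer to shCtrl replicate 2 (0.9884) than to shYthdf2 replicates 1 (0.9811) and 4 (0.9805). No label names a batch, so the fold changes of the members and the count of those called were also computed without the replicate 2 libraries. Replicates 1 and 4 differed by more than counting noise, with a chi-square per degree of freedom of 3.34 in shYthdf2 and 4.68 in shCtrl. Pairs with replicate 2 differed far more, at 35 and 33.1 in shYthdf2 and 55.3 and 54.2 in shCtrl. Replicates 1 and 4 were counted as separate samples, though an excess over counting noise does not show that they came from separate cultures. The 12 markers of GCs summed to between 145770 and 164160 normalized counts in the 6 libraries, of which Zic1 alone gave 60665 to 66405. Single markers differed, with 8 higher and 4 lower in shYthdf2 by the sign of the fold change. At an unadjusted p under 0.05 by edgeR, 2 were lower, against 10.6% of all genes, and none was higher. These were Neurod1 (log2 fold change -0.32, adjusted p = 0.124) and Cbln1 (-0.64, adjusted p = 0.140).

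The coding sequence at the ankyrin-binding motif is shown for the 4 members of the L1 family, since it is a part that they are known to share, where reads of one gene could be taken for those of another. The capitals mark the 15 bases of the motif, and the lower case the 15 bases on either side, 5′ to 3′ on the coding strand, from the GENCODE transcripts of GRCm38. All 4 stretches are coding and lie in the last exon of their transcript. They are at chrX:73855107-73855151 for L1cam (minus strand, exon 29), chr12:44598471-44598515 for Nrcam (plus strand, exon 31), chr1:132570492-132570536 for Nfasc (minus strand, exon 32) and chr6:103729234-103729278 for Chl1 (plus strand, exon 27).
L1cam: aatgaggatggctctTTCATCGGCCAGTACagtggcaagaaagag
Nrcam: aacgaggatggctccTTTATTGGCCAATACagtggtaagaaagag
Nfasc: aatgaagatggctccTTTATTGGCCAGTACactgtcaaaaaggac
Chl1: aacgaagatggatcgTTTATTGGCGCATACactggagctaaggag
L1cam and Nrcam were closest, with 39 of 45 identical bases, and L1cam and Chl1 were farthest apart, with 30 of 45. Even so, none of the 45 pairs of members shared a run of 50 bases in any annotated transcript, on either strand. Other genes that overlap a member in the annotation had few reads beside it. The most were the 196 counts of Arhgap4, which overlaps L1cam on the same strand, where L1cam had at least 13466. The smallest margin was at Cntn5, where the antisense gene Gm32710 had up to 3 counts and Cntn5 as few as 8. The sources used here do not say that the reads were counted by strand.

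None of the 10 members passed an adjusted p of 0.05 between shYthdf2 and shCtrl by edgeR, where 0.604% of all genes tested did. At an unadjusted p under 0.05 there were 6 of the 10 members, against 20.1% of all genes, and the groups did not overlap for 6 of 10, against 26.0% of all genes. Of these 6, 5 were higher in shYthdf2 (Nrcam, Chl1, Cntn1, Cntn3 and Cntn5; 9.50% of all genes were higher at that p) and Cntn2 was lower (10.6% of all genes). The median log2 fold change of the 10 members was 0.57 and that of all genes 0.01. Since Cntn5 passed the filter only through the group where it was high, it adds nothing to these counts. The other 9 members held 4 that were higher and 1 that was lower at that p, with a median of 0.53. The same genes were those of the 9 whose groups did not overlap. Nor does Cntn5 add to the counts of called members below that include it. DESeq2 called 5 members at an adjusted p under 0.05, namely Nrcam, Chl1, Cntn1, Cntn3 and Cntn5, where it called 7.67% of all genes, and limma-voom called none, where it called 0.139% of all genes. The calls turned on 1 library: without shCtrl replicate 2, edgeR called Nrcam, Chl1, Cntn1, Cntn3, Cntn4 and Cntn5, all higher, where 18.3% of all genes were called in either direction and 9.42% as higher. Without any one of the other 5 libraries it called no member, but in 4 of these fits it called 0 genes at all, and 829 without shYthdf2 replicate 2. With the replicate number as a block no member was called, against 1.35% of all genes, and 8 members, among them Nfasc and Cntn4, had an unadjusted p under 0.05, against 31.6% of all genes. A batch term for replicate 2 gave 8 called members of 10 where 22.1% of all genes were called, and leaving out both replicate 2 libraries gave 9 where 52.7% were. Without a filter on low counts 2 members were called (Nrcam and Chl1), where 1.98% of all genes were.

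**Figure D1:**
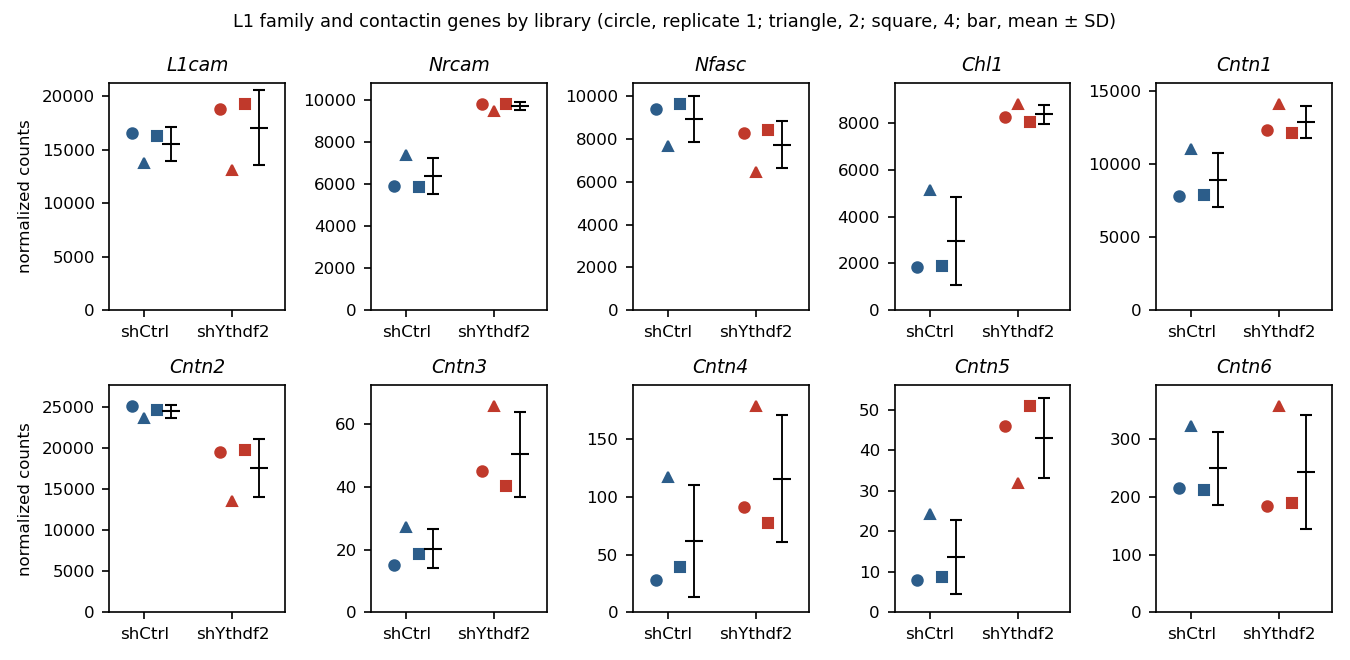
Normalized counts (y axis) of the 10 members in each library, with shCtrl in blue and shYthdf2 in red, circles for replicate 1, triangles for replicate 2, squares for replicate 4, and black bars for the mean ± SD of each group (n = 3). Nrcam, Chl1, Cntn1, Cntn3 and Cntn5 are higher in each shYthdf2 library than in each shCtrl library and Cntn2 is lower, and the triangles often lie apart from the other symbols.

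Chl1, the close homologue of L1, had the greatest difference of the L1 family. It is a single-pass adhesion molecule of axons and some glia, and its gene (ENSMUSG00000030077) lies at chr6:103510586-103750211 on the plus strand of GRCm38. It had 8264, 8841 and 8048 normalized counts in shYthdf2 replicates 1, 2 and 4, and 1845, 5135 and 1872 in shCtrl. The 3 shYthdf2 libraries lay close together and above all shCtrl libraries, and shCtrl replicate 2 lay well above the other two controls. The mean in shYthdf2 was 2.84 times that in shCtrl (log2 fold change 1.51, SE 0.39, edgeR adjusted p = 0.106). Within replicate numbers the log2 difference was 2.16, 0.78 and 2.1, so that it was smallest in replicate 2. Without shCtrl replicate 2 the log2 fold change was 2.17 and the adjusted p by edgeR 0.000383, in a fit that called 18.3% of all genes. Without any other single library the adjusted p by edgeR was between 0.128 and 0.349.

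Markers of the oligodendrocyte lineage moved with Chl1 across the libraries. All 10 genes of that list had a fold change above 0, 1 of them at an unadjusted p under 0.05, and none was at 0. Their summed normalized counts were 15892, 20829 and 16355 in shYthdf2 and 6105, 20944 and 5859 in shCtrl, a range of 15892 to 20829 against 5859 to 20944. The groups overlapped, because shCtrl replicate 2 was as high as the shYthdf2 libraries. In replicate 2 the sums of both groups were alike and Chl1 was 0.78 higher in shYthdf2 on the log2 scale, while in replicates 1 and 4 both the sum and Chl1 were higher. The part of these cells in the differences in replicates 1 and 4 was not tested. In such bulk samples, a change in the number of cells of a type and a change in the RNA of each cell cannot be told apart.

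**Figure D2:**
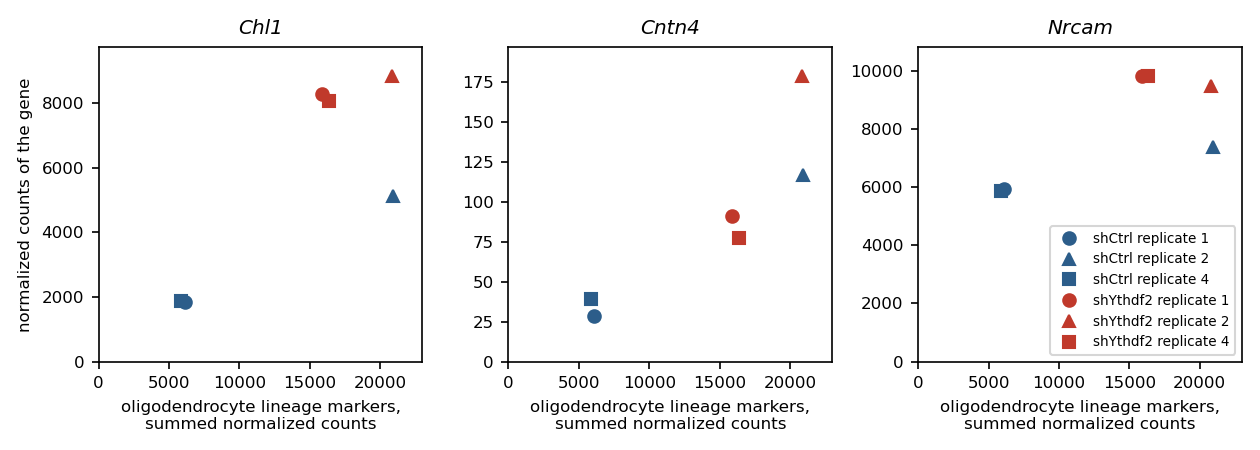
Normalized counts of Chl1, Cntn4 and Nrcam (y axes) against the summed normalized counts of 10 oligodendrocyte lineage markers (x axis), 1 point for each of the 6 libraries. The replicate 2 libraries (triangles) have marker sums of 20829 in shYthdf2 and 20944 in shCtrl, and at these sums Chl1 is 8841 and 5135.

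The other glial and non-neuronal lists were also measured. Markers of astrocytes and Bergmann glia summed to 12655 to 13729 in shYthdf2 and 9053 to 15341 in shCtrl, with 8 of 10 genes above 0. At an unadjusted p under 0.05 by edgeR, 1 was higher and 1 lower, against 9.50% and 10.6% of all genes. The higher was Aqp4 (log2 fold change 0.87, edgeR adjusted p = 0.173) and the lower Slc1a2 (-1.44, edgeR adjusted p = 0.0552). For microglia the range was 407 to 1165 against 186 to 851 and 7 of 7 tested genes were above 0, though the defining marker P2ry12 had under 10 counts in each library. Markers of vascular cells and fibroblasts ranged from 4201 to 10602 against 3012 to 8687, with 9 of 9 tested genes above 0 and the endothelial marker Cldn5 near 0. All 3 lists overlapped between groups, and the part of any of them in the members' differences was not tested. Among neuronal lists, markers of GABAergic interneurons did not overlap, at 7628 to 9264 in shYthdf2 and 6379 to 7016 in shCtrl, and neither did those of progenitors and cycling cells, at 209 to 249 against 125 to 180. Purkinje cell markers (1275 to 1448 against 1305 to 1360) and those of unipolar brush cells (16270 to 17153 against 14060 to 17277) overlapped. No gene of any of the 9 marker lists passed an adjusted p of 0.05 by edgeR. At an unadjusted p under 0.05 there were 1 or 2 genes in 7 of the lists and none in the lists of microglia and of progenitors.

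Nrcam encodes a member of the L1 family found on axons, at axon initial segments and at nodes, and it had the smallest p-value of the 10 genes. Its gene (ENSMUSG00000020598) is at chr12:44328885-44601964 on the plus strand. Normalized counts were 9827, 9476 and 9814 in shYthdf2 replicates 1, 2 and 4, and 5923, 7363 and 5848 in shCtrl. The shYthdf2 libraries were nearly equal, and all were above the highest control, which was replicate 2. The mean was 9706 ± 199 in shYthdf2 and 6378 ± 854 in shCtrl (SD, n = 3 libraries each), a ratio of 1.52 (log2 fold change 0.61, SE 0.12, edgeR adjusted p = 0.0621). By DESeq2, which called 7.67% of all genes, the adjusted p was 0.000719, and by limma-voom it was 0.0647. With single libraries left out, the adjusted p by edgeR ranged from 0.00263 to 0.303. Within replicate numbers the log2 difference was 0.73, 0.36 and 0.75.

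The 3 genes whose log2 values over the 6 libraries were most like those of Nrcam were Kcnd3, which encodes a potassium channel subunit (Pearson r = 0.9998), Ift57, which encodes a protein of transport in cilia (0.9987), and Phkb, which encodes a subunit of phosphorylase kinase (0.9986). Among the members themselves, Chl1 (0.98), Cntn5 (0.97) and Cntn1 (0.94) were most like Nrcam. These correlations are over 6 libraries that include both groups and the outlying replicate 2, and describe these libraries only.

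The other members of the L1 family differed less. L1cam, the founding member, supports the growth and bundling of axons. It had 18833, 13055 and 19290 normalized counts in shYthdf2 and 16554, 13738 and 16309 in shCtrl. The groups overlapped, since replicate 2 was the lowest library of each group, and the log2 fold change was 0.14 (SE 0.17, edgeR adjusted p = 0.700). Nfasc encodes neurofascin, which organizes the axon initial segment and nodes, with a neuronal and a glial form that gene counts do not separate. It had 8277, 6468 and 8448 normalized counts in shYthdf2 and 9424, 7695 and 9659 in shCtrl. Replicate 2 was again lowest in each group and the groups overlapped. The log2 fold change was -0.21 (SE 0.14, edgeR adjusted p = 0.468), with a difference of -0.19, -0.25 and -0.19 within replicates 1, 2 and 4.

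Cntn1 and Cntn2, the most abundant contactin genes in these cells, differed in opposite directions. Cntn1 (ENSMUSG00000055022, chr15:92051165-92341967, plus strand) encodes contactin 1, which pairs with contactin-associated proteins and with L1 family members at the surface of the axon. It had 12320, 14119 and 12099 normalized counts in shYthdf2 and 7795, 11031 and 7869 in shCtrl. All shYthdf2 libraries were above all shCtrl libraries, with replicate 2 the highest of each group (log2 fold change 0.53, SE 0.16, edgeR adjusted p = 0.137). Cntn2 (ENSMUSG00000053024, chr1:132509427-132543256, minus strand) encodes contactin 2, or TAG-1. It had 19452, 13507 and 19725 normalized counts in shYthdf2 and 25100, 23571 and 24635 in shCtrl. It was the one member that was lower in all shYthdf2 libraries than in all shCtrl libraries, and shYthdf2 replicate 2 was the lowest. The mean was 17561 ± 3514 in shYthdf2 and 24436 ± 784 in shCtrl (SD, n = 3 libraries each), a log2 fold change of -0.48 (SE 0.16, edgeR adjusted p = 0.158). The difference within replicate numbers was -0.37, -0.80 and -0.32, here widest in replicate 2.

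Cntn3, Cntn4 and Cntn5 had few reads, so that counting error weighs on their values. They encode contactins 3 to 5, which are found on neurons in several brain regions. Cntn3 had 17 to 68 raw counts in a library and 45.0, 65.9 and 40.3 normalized counts in shYthdf2 replicates 1, 2 and 4, against 15.1, 27.1 and 18.7 in shCtrl. The groups did not overlap, and the differences within replicate numbers were 1.58, 1.28 and 1.11 on the log2 scale (log2 fold change 1.31, SE 0.34, edgeR adjusted p = 0.107). Cntn5 had 46.0, 32.0 and 50.9 normalized counts in shYthdf2 and 7.98, 24.2 and 8.79 in shCtrl, from 8 to 48 raw counts. Its groups did not overlap either, though they nearly met in replicate 2, where the log2 difference was 0.40, beside 2.53 and 2.54 in replicates 1 and 4 (log2 fold change 1.64, SE 0.47, edgeR adjusted p = 0.125). Cntn4 had 91.0, 179 and 77.5 normalized counts in shYthdf2 and 28.4, 117 and 39.5 in shCtrl. Its groups overlapped, since shCtrl replicate 2 was above 2 of the shYthdf2 libraries (log2 fold change 0.91, SE 0.57, edgeR adjusted p = 0.415). Replicate 2 was the highest library of each group. The same held for the summed markers of the oligodendrocyte lineage, of vascular cells and fibroblasts, and of GCs, progenitors, GABAergic interneurons and unipolar brush cells. Vascular and fibroblast markers summed to 4201, 10602 and 4318 in shYthdf2 replicates 1, 2 and 4 and 3104, 8687 and 3012 in shCtrl. The part of any of these lists in the difference of Cntn4 was not tested. Single libraries decided its size. Without shCtrl replicate 2 the log2 fold change was 1.78, with an edgeR adjusted p of 0.0387, without shYthdf2 replicate 2 it was 0.44 (edgeR adjusted p = 0.691), and without shCtrl replicate 1 it was 0.56 (edgeR adjusted p = 0.731).

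Cntn6 encodes NB-3, a contactin known from the developing cerebellum. It had 184, 358 and 190 normalized counts in shYthdf2 and 215, 323 and 212 in shCtrl. Replicate 2 was the highest library of each group and the groups overlapped. The log2 fold change was -0.03 (SE 0.31, edgeR adjusted p = 0.965), and its sign was turned when single libraries were left out.

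**Figure D3:**
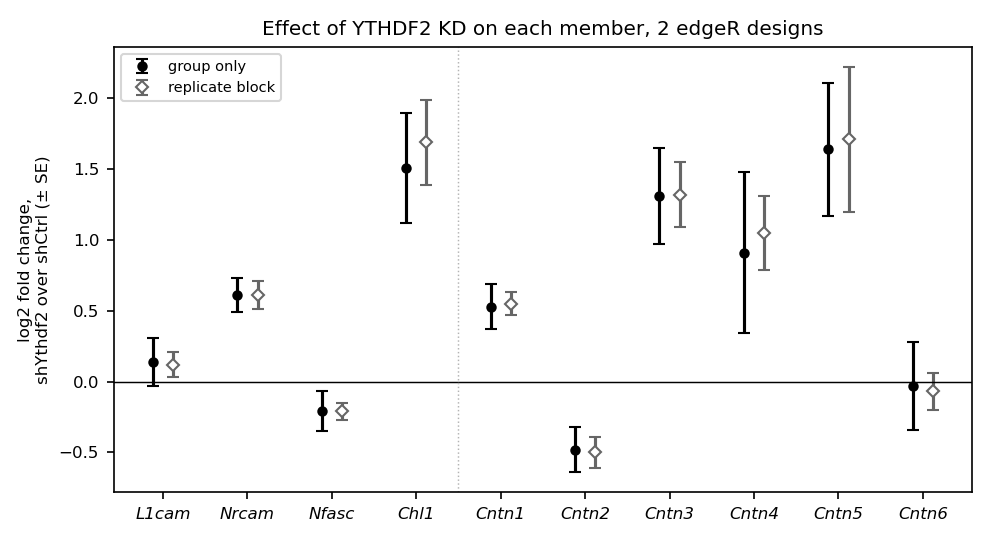
Log2 fold change of shYthdf2 over shCtrl with its SE (y axis) for each member, from the edgeR fit on the group alone (filled circles) and with the replicate number as a block (open diamonds). Chl1 is at 1.51 and 1.69, Cntn2 at -0.48 and -0.50 and Cntn6 near 0 in both.

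Levels between genes were compared as TMM-normalized CPM divided by the kilobases of merged exons. In shCtrl, Cntn2 was highest at 138 ± 4.44, then L1cam at 111 ± 11.2 and Cntn1 at 49.7 ± 10.3 (mean ± SD, n = 3 libraries). Nfasc (33.3 ± 4.0) and Nrcam (25.2 ± 3.37) followed with ranges that overlapped, then Chl1 at 12.7 ± 8.11. Cntn6 had a level of 2.03 ± 0.512, and Cntn4 (0.383 ± 0.301), Cntn5 (0.159 ± 0.106) and Cntn3 (0.159 ± 0.0484) had levels whose ranges overlapped from each to the next. In shYthdf2 the order was L1cam at 122 ± 24.9, Cntn2 at 99.5 ± 19.9, Cntn1 at 71.8 ± 6.19, Nrcam at 38.3 ± 0.785, Chl1 at 36.0 ± 1.76 and Nfasc at 28.8 ± 4.09. Nrcam and Chl1 stood above Nfasc in each shYthdf2 library. In shCtrl, Chl1 was below Nfasc in each library and Nrcam was below it in replicates 1 and 4. With the length of the longest transcript instead, Nrcam came before Nfasc in shCtrl and Cntn3 before Cntn5, and the other 6 members kept their places.

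The make-up of each family was given by the share of each member in the family's summed level. Chl1 made up 14.8%, 19.6% and 14.2% of the L1 family in shYthdf2 replicates 1, 2 and 4, and 4.27%, 12.3% and 4.36% in shCtrl. Its groups did not overlap, and the mean share was 9.20 percentage points higher (16.2 ± 2.99% against 6.99 ± 4.64%, SD, n = 3), with p = 0.1 in an exact permutation test, two-sided, which cannot give a smaller value with groups of this size. Nfasc had 12.8%, 12.5% and 12.9% in shYthdf2 and 19.0%, 16.1% and 19.5% in shCtrl, a lower share with no overlap (exact permutation p = 0.1). Those of L1cam (53.9 ± 4.68% against 61.0 ± 4.96%) and Nrcam (17.1 ± 1.93% against 13.8 ± 2.15%) overlapped between groups (exact permutation p = 0.3 for each, n = 3). Within replicates 1, 2 and 4, however, the share of L1cam differed by -7.88, -6.76 and -6.63 percentage points. That of Nrcam differed by 3.52, 3.07 and 3.40, so each had 1 direction in 3 of 3 same-numbered pairs. The exact sign-flip permutation p was 0.25 for each, the smallest that 3 pairs give, and it takes the numbers to pair the libraries. The summed level of the L1 family was 240, 193 and 243 in shYthdf2 and 185, 178 and 184 in shCtrl, with all shYthdf2 libraries above all shCtrl libraries (ratio of means 1.24, exact permutation p = 0.1).

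Among the contactins, Cntn1 made up 37.8%, 49.2% and 37.1% of the summed level in shYthdf2, and 23.2%, 31.0% and 23.7% in shCtrl. Cntn2 made up 60.6%, 47.7% and 61.3%, against 75.7%, 67.1% and 75.1%. Neither overlapped between groups (p = 0.1 for each by the exact permutation test, 3 libraries against 3), and within each replicate number Cntn1 was 13.4 to 18.2 percentage points higher and Cntn2 lower in shYthdf2. Because these are shares of 1 sum, they do not vary independently. Cntn3, Cntn4, Cntn5 and Cntn6 had at most 1.81% each in any library. The summed level of the contactins was 182, 160 and 182 in shYthdf2 and 188, 199 and 186 in shCtrl, lower in all shYthdf2 libraries (ratio of means 0.916, exact permutation p = 0.1). No p-value in this family of 12 tests can reach 0.05 in this design, and after Benjamini-Hochberg adjustment they are no smaller.

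**Figure D4:**
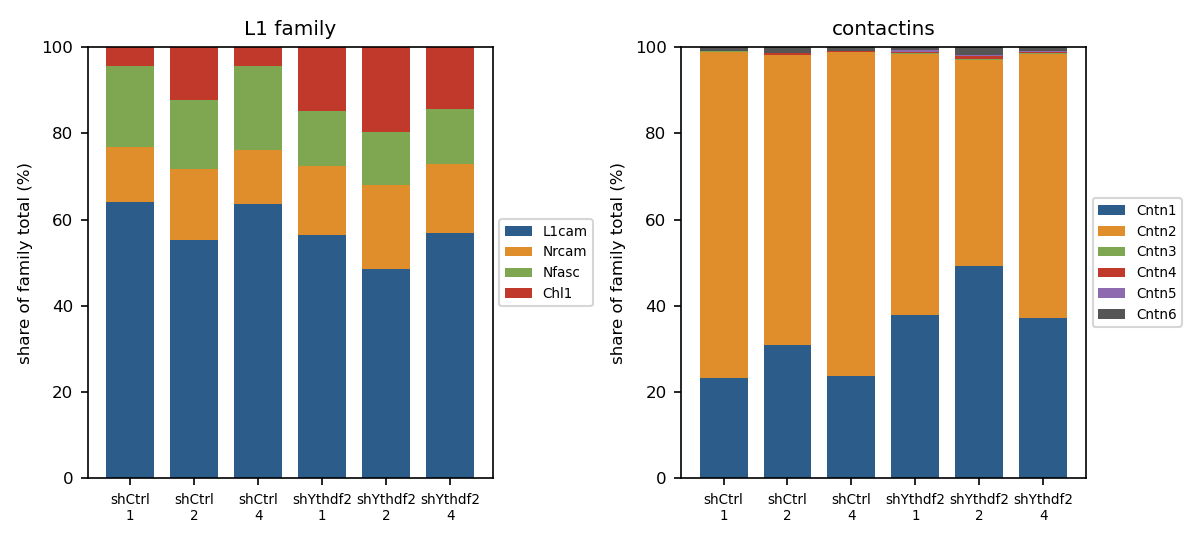
Share of each member in the summed level of its family (y axis, percent) in each of the 6 libraries (x axis), with the L1 family on the left and the contactins on the right. The Chl1 part is 14.2 to 19.6% in shYthdf2 and 4.27 to 12.3% in shCtrl, and the Cntn1 part is 37.1 to 49.2% against 23.2 to 31.0%.

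The genes Cntn3, Chl1, Cntn6 and Cntn4 follow each other on chromosome 6. The starts of Cntn3, Cntn6 and Cntn4 lie -937, 982 and 2167 kb from that of Chl1. Cntn3 and Chl1 had log2 fold changes of 1.31 and 1.51, Cntn4 0.91 and Cntn6, which lies between Chl1 and Cntn4, -0.03. The 4 other protein-coding genes within 1000 kb of this row that passed the filter had smaller differences than Cntn3, Chl1 and Cntn4, at 0.50 for Pdzrn3 (edgeR adjusted p = 0.194), 0.24 for Crbn (edgeR adjusted p = 0.242), 0.16 for Lrrn1 and 0.12 for Trnt1. Pdzrn3 and Crbn encode proteins of ubiquitin ligases, Lrrn1 a neuronal leucine-rich repeat protein and Trnt1 an enzyme that completes the end of tRNAs. The pair Cntn2 and Nfasc, neighbours on chromosome 1, were both lower in mean in shYthdf2, at -0.48 and -0.21.

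**Figure D5:**
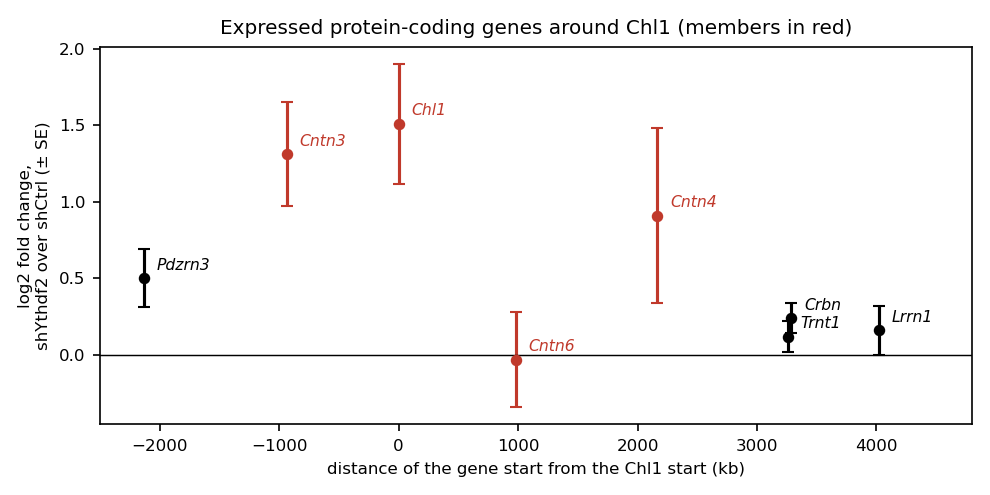
Log2 fold change of shYthdf2 over shCtrl with its SE (y axis) of the expressed protein-coding genes around Chl1, by the distance of their start from that of Chl1 in kb (x axis), with members in red. Cntn6, 982 kb from Chl1, is at -0.03 between Chl1 at 1.51 and Cntn4 at 0.91.

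Among the contactin-associated proteins, which are the membrane-spanning partners of contactins, 4 of 6 tested genes were higher at an unadjusted p under 0.05 by edgeR, against 9.50% of all genes, and none passed adjustment. Cntnap2 encodes Caspr2, which pairs with contactin 2, and had 1155, 1133 and 1124 normalized counts in shYthdf2 and 406, 853 and 370 in shCtrl. All shYthdf2 libraries were above all shCtrl libraries, and shCtrl replicate 2 was again the highest control (log2 fold change 1.07, SE 0.30, edgeR adjusted p = 0.124). Cntnap5b (1.59) and Cntnap5c (0.70) were the other two of smallest p. Cntnap5a (1.29) was the fourth gene. Cntnap1, which encodes Caspr, the partner of contactin 1, had a log2 fold change of -0.15 (SE 0.22, edgeR adjusted p = 0.730) with overlapping groups. Cntnap3 had no counts in any library, which allows up to 3 in each. The median log2 fold change of the tested genes was 0.88, beside 0.01 for all genes.

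Among 13 ankyrin, spectrin and cytoskeletal linker genes, through which the L1 family is held to the cytoskeleton, 2 were higher and 2 lower at an unadjusted p under 0.05 by edgeR, where 9.50% of all genes were higher and 10.6% lower, and the median was -0.08, beside 0.01 for all genes. Ank2 and Ank3 encode the ankyrins B and G of axons. Ank2 had a log2 fold change of 0.38 (SE 0.13, edgeR adjusted p = 0.174) and Ank3 of 0.28 (SE 0.12, edgeR adjusted p = 0.230), and for both the groups did not overlap. Msn, which encodes moesin, a linker of membrane to actin, was at -0.81 (SE 0.29, edgeR adjusted p = 0.189), a difference of -0.37, -1.88 and -0.20 in replicates 1, 2 and 4. Ezr, which encodes the related ezrin, was the other lower gene, at -0.56, with overlapping groups.

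Of 20 extracellular and membrane partners, 18 were tested and 5 were higher at an unadjusted p under 0.05 by edgeR and none was lower. These are 27.8% of the tested partners, beside 20.1% of all genes in either direction, and the median was 0.32, beside 0.01. Nrp1, which encodes neuropilin 1, a receptor for class 3 semaphorins that binds L1cam, had 251, 393 and 309 normalized counts in shYthdf2 and 122, 193 and 126 in shCtrl. It was higher in all shYthdf2 libraries by a similar factor in each replicate number (log2 fold change 1.11, SE 0.25, edgeR adjusted p = 0.0815). With the replicate number as a block its adjusted p was 0.0450 by edgeR, the one gene of the partner lists whose call the block changed. Vcan, which encodes the matrix proteoglycan versican, was at 0.65 (edgeR adjusted p = 0.115) and Ptprg, which encodes a receptor phosphatase that binds contactins, at 0.31 (edgeR adjusted p = 0.117). Among the proteases that shed or cut L1 family members, Bace1, which encodes beta-secretase, was at -0.21 (SE 0.09, edgeR adjusted p = 0.230), with groups that did not overlap. Adam10, which encodes a sheddase of L1cam, was at 0.21 (SE 0.12, edgeR adjusted p = 0.382).

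Of 17 other immunoglobulin adhesion molecules of axons, 8 were higher and 1 lower at an unadjusted p under 0.05 by edgeR, with a median of 0.31 and no gene past adjustment. Together these are 52.9% of the list, beside 20.1% of all genes, whose median was 0.01. Cadm2 and Cadm1 encode synaptic cell adhesion molecules and Negr1 a lipid-anchored protein of the IgLON family. Cadm2 was at 0.50 (SE 0.12, edgeR adjusted p = 0.0872), Negr1 at 0.78 (SE 0.21, adjusted p = 0.115) and Cadm1 at 0.56 (SE 0.17, adjusted p = 0.142). In all 3 the groups did not overlap and shCtrl replicate 2 was the highest control. The gene that was lower was Ncam2, which encodes a neural cell adhesion molecule, at -0.37 (SE 0.13, edgeR adjusted p = 0.171). In each of these lists, counts at an unadjusted p moved when single libraries were left out.

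The 250 bases before a start site are shown for Nrcam and Cntn1, the abundant members of each family that were higher in all shYthdf2 libraries and whose annotated window held no exon. They come from the RefSeq promoter table (GRCm38.p6), in which all 10 members were found, and are printed 5′ to 3′ on the strand of the gene, which is plus for both. Cntn1 has 3 start sites in that table, and the window printed is that of the first. The windows are chr12:44328635-44328884 for Nrcam and chr15:92050915-92051164 for Cntn1. Capitals mark matches to the GC box (GGGCGG), the CCAAT box, the TATA box (TATAAA), the cAMP response element (TGACGTCA) or the AP-1 site (TGANTCA) on either strand.
Nrcam: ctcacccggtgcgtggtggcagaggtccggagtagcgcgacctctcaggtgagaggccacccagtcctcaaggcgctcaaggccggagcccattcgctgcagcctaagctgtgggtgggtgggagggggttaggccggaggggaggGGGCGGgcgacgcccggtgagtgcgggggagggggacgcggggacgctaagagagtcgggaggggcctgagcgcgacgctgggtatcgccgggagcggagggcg
Cntn1: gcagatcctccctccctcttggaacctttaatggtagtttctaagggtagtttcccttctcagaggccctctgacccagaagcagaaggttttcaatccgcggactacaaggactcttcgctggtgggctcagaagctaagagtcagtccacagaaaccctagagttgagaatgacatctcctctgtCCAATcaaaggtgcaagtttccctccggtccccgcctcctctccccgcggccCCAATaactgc
Nrcam held 1 GC box, as did 32.7% of the 32851 windows of that length in the table at least once. Cntn1 held 2 CCAAT matches, a motif found in 33.8% of windows. None of the other 3 motifs was in either window, and they were found in 12.4% (TATA box), 6.75% (AP-1 site) and 1.55% (cAMP response element) of all windows. The other two Cntn1 windows, which are not printed, held 1 TATA box and 2 CCAAT matches. No match overlapped another, and no motif was shared by the 2 windows printed.

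N6-methyladenosine is placed in a short consensus of which GGACT, as read in the DNA letters of the transcript, is a common form. In the longest protein-coding transcript of each member, read on the transcript strand, Cntn2 held 14 copies (1.95 per kb) and Nfasc 15 (1.54 per kb). These are the most per length, and 87.9% and 75.9% of the 13719 tested protein-coding genes had a lower density. Cntn1 held 2 copies (0.353 per kb, above 10.7% of genes) and Cntn5 2 copies (0.477 per kb, above 15.6%). The other 6 members were between 0.760 per kb in Cntn4 and 1.32 per kb in Cntn3, on either side of the median of all tested genes, 1.05 per kb. A match is a sequence and not a methylated site, and methylation was not measured in these libraries.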

How the data were processed

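RNA-seq of 6 libraries of cultured GCs, 3 shYthdf2 and 3 shCtrl, was analysed from 1 table of counts per gene deposited by the authors, as whole numbers without normalization. By the study's methods HISAT and TopHat2 placed the reads on GRCm38, and HTSeq gave the count of each gene. The submitters' processing notes name Bowtie 0.12.2 and mm9 instead, and the library kit also differs between the sources (TruSeq or NEBNext Ultra). The identifiers of the table matched GENCODE mouse release 21 on GRCm38, which gave symbols, positions and lengths. Groups follow the descriptions of the samples.

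Genes were kept by filterByExpr (minimum count 10, minimum total count 15) and tested with edgeR 4.0.16 in R 4.3.3 (TMM, quasi-likelihood, group only), with Benjamini-Hochberg adjustment over all 17214 genes tested. The SE was the absolute log2 fold change over the square root of F. Normalized counts are TMM-normalized to a common library size, and correlations used log2(CPM + 0.5). Shares and sums were tested by exact two-sided permutation over the 20 assignments, whose smallest p is 0.1. Alternatives were DESeq2 1.42.0, limma-voom (limma 3.58.1), other size factors and filters, a replicate block, a batch term for replicate 2 and left-out libraries. The replicate numbers come from the descriptions, and deviations from the group means of same-numbered libraries correlated at 0.263, 0.367 and 0.281. The shift of replicate 2 in both groups can give such values by itself, since deviations within a group cancel out. They therefore do not show that replicates 1 and 4 pair by number. Log2 values of shYthdf2 replicate 1 correlated at 0.9742 with shCtrl replicate 1 and 0.9738 with shCtrl replicate 4. Those of shYthdf2 replicate 4 did so at 0.9735 and 0.9743. The replicate block and the sign-flip test assume pairing by number. In the simulated shYthdf2 and shCtrl comparison (16874 genes), edgeR found 37.4% of genes changed 2-fold and 77.1% of those changed 4-fold. Of its calls 5.60% were unchanged genes, against 21.4% of the calls of DESeq2. The simulated libraries were drawn independently, without the shift of replicate 2, so these rates need not hold for the real libraries. Depth was 17246821 to 21546595 counts per library.

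The named genes were all members and Ythdf2, the 3 genes of smallest p and any past adjustment in each partner list, expressed protein-coding neighbours on chromosome 6, overlapping genes, and the 3 genes most like the member of smallest p. Cntnap5a, Cntnap1, Cntnap3, Ezr, Ncam2, Slc1a2 and Aqp4 were named after their values were seen. One gene that this rule names is not reported here. Members and lists were chosen with earlier results of these data known. Sequences were read with Biopython 1.88 from GENCODE transcripts and the RefSeq promoter table, and plots drawn with matplotlib 3.10.9.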

Additional observations from a re-analysis of the deposited data

How the results depend on the processing

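The count of members past an adjusted p of 0.05 was 0 with edgeR and remained 0 with other size factors, with library size alone, with limma-voom, with at least 10 counts in every library and with the replicate block. It was 5 with DESeq2, 2 with no filter (Nrcam and Chl1), 8 with a batch term for replicate 2 (all but L1cam and Cntn6), and 9 with both replicate 2 libraries left out (all but Cntn6), where 52.7% of all genes tested were called. Leaving out single libraries gave 0 to 6, with 6 without shCtrl replicate 2 alone. The causes were not tested. Over all genes, edgeR called 104 in the main fit, 3239 without shCtrl replicate 2, and 0 to 829 without any other single library. With all 6 libraries and the batch term for replicate 2 it called 3799. Directions held under every alternative run for the 9 members other than Cntn6, which was -0.03 and turned to 0.00 with library size alone, 0.13 without shYthdf2 replicate 1, 0.12 without shYthdf2 replicate 4 and 0.20 without shCtrl replicate 2 (range -0.42 to 0.20 over left-out libraries). The log2 fold change of Cntn4 was 0.91 and ranged from 0.44 to 1.78 over left-out libraries. With at least 10 counts in every library, Cntn5 was not tested, and it adds nothing to the counts above that include it.

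With the replicate block the count over all genes went from 104 to 232, and the members' calls did not change. The block value was 0.61 for Nrcam (adjusted p = 0.0532), 1.69 for Chl1 and -0.50 for Cntn2. Shares kept their direction under other lengths, with counts and within replicate numbers, and when single libraries were left out (Chl1 7.48 to 11.9 points, Cntn1 11.5 to 17.9, Cntn2 -18.9 to -11.7), except Cntn6 (-0.223 to 0.272). With the longest transcript, 6 of 10 members kept their rank of level. Genes at an unadjusted p under 0.05 ranged over left-out libraries from 2 to 5 of the contactin-associated proteins, 1 to 5 of the linkers, 3 to 12 of the extracellular and membrane partners, 1 to 2 of the proteases and 3 to 12 of the other adhesion molecules. Cntn3, Cntn4 and Cntn5 are limited by depth, at 8 to 185 counts per library.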
